A study of Oryza sativa with 4 samples.

Results

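The genes described here are 8 loci of rice (*Oryza sativa*) chosen by name and identifier, with earlier results of these data known, out of 37869 loci measured. They are the sucrose transporters SUT1 (Os03t0170900), SUT2 (Os12t0641400) and SUT4 (Os02t0827200), and the SWEET genes SWEET4 (Os02t0301100), SWEET13 (Os12t0476200), SWEET14 (Os11t0508600), SWEET15 (Os02t0513100) and SWEET16 (Os03t0341300). RNA-seq was made on leaves of wild type plants of the age of 5 weeks (labelled ecotype Illmi), grown in soil pots in a greenhouse. The 4 libraries are a well-watered control (C) and plants without water for 1, 2 and 3 d. Each library came from leaves pooled from several plants, and each condition has 1 library, so no difference between conditions has a replicate check or a test across samples. C was collected before water was withheld, and drought therefore cannot be told apart from the day of sampling. The comparisons of the 3 drought days share this library. Because whole leaves were used, fewer cells of a type and less RNA per cell cannot be told apart either.

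Sucrose made in the leaf is carried across membranes by different kinds of proteins. SWEET proteins are uniporters that let sugar pass down its gradient, out of the cell or across the vacuole membrane, and sucrose transporters (SUT) are symporters that move sucrose with protons. Together they load the phloem, fill and empty the vacuole and feed the growing grain. SWEET genes of rice are also known as susceptibility genes, since bacterial blight strains switch some of them on in the leaf.

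The 8 loci are represented by 9 of the 44553 transcript sequences in the gene table, since SUT1 has 2 transcripts and every other locus has 1. All 9 had reads in all 4 libraries. The table describes SUT1, SUT2 and SUT4 as sucrose transporters and SWEET13, SWEET14 and SWEET15 as MtN3 protein precursors, MtN3 being a nodulin whose name the family carried earlier. SWEET4 is described as a RAG1-activating protein 1 homologue, which is the name of the animal SWEET protein. The description of SWEET16 (Os03t0341300-01) is "Similar to Cytochrome c oxidoreductase", which does not name a sugar transporter, and its only ontology term is integral to membrane. RefSeq lists a gene of each of the 8 names on the chromosome that the identifier gives. For 7 of them the sequence in the table was at least 96.6% as long as the RefSeq gene, introns included, and for SWEET16 it was 72.8% as long. RefSeq has no other gene overlapping any of the 8.

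The libraries held 56727328 (C), 52626188 (1 d), 60322263 (2 d) and 56909968 (3 d) mapped reads. Values are given as CPM, the counts scaled to 1000000 mapped reads in each library, and changes as the log2 ratio of CPM with the exact 95% interval of the 2 counts (Clopper-Pearson), which covers counting error only. A transcript was called up- or down-regulated where it changed 2-fold or more, a log2 ratio past 1 or −1. Tissue and treatment were checked with marker genes. The drought marker Dip1 stood at 49.9 CPM in C, 91.4 at 1 d, 4236 at 2 d and 4176 at 3 d. The leaf marker RbcS1, the small subunit of Rubisco, stood at 1450, 1278, 171 and 13.5 CPM in the same order. The authors used RbcS1 as a marker that drought represses, so its fall does not measure the share of leaf in a library. Of 13 loci described as pollen allergens, 4 to 8 had reads, most of them in a calcium-binding one (Os05t0380900-01). Their sum was 9.70 CPM in C, 3.53 at 1 d, 39.8 at 2 d and 64.1 at 3 d, higher on the same days as most of the 8 loci. Of 50 glutelin or prolamin loci 16 to 23 had reads, 171 to 237 CPM in all, most of them in a vacuolar processing enzyme gene whose description names glutelin. The part of other tissues in the changes below was not tested.

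Most transcripts were lower relative to the mapped reads at 2 d and 3 d than in the control. The median log2 ratio of 31504 loci with at least 10 reads was 0.03 at 1 d, that of 31344 loci was −0.41 at 2 d, and that of 30920 loci was −0.86 at 3 d. Scaling that assumes no overall change raises every ratio, by 0.33 (edgeR TMM) and 0.36 (DESeq2 median of ratios) at 2 d and by 0.72 and 0.86 at 3 d. Subtracting that median gives a value free of the scaling, written below as relative to all loci.

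Most of the 8 loci stood above this median, SWEET14 at 3 d and SUT4 at 1 d being the exceptions. At 1 d, 3 of the 8 loci were up-regulated (SWEET14, SWEET15 and SWEET16) and 0 down-regulated, where 5.6% of all transcripts with reads in both libraries were called up and 4.3% down. At 2 d, 6 were up-regulated and 0 down-regulated, against 19.2% and 34.4% of all transcripts. At 3 d, 5 were up-regulated and 1 (SWEET14) down-regulated, against 20.2% and 46.9%. With either of these scalings (edgeR TMM, DESeq2) 7 were called up and 0 down at 3 d, because SUT4 and SWEET4 passed the threshold and SWEET14 no longer did. The median log2 ratio of the 8 loci was 0.65, 2.07 and 2.01 at 1, 2 and 3 d. The loci above the median of all loci were 7, 8 and 7 of the 8 on these days. Except where both SUT1 transcripts are named, SUT1 is given by the longer one, which had more reads.

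**Figure D1:**
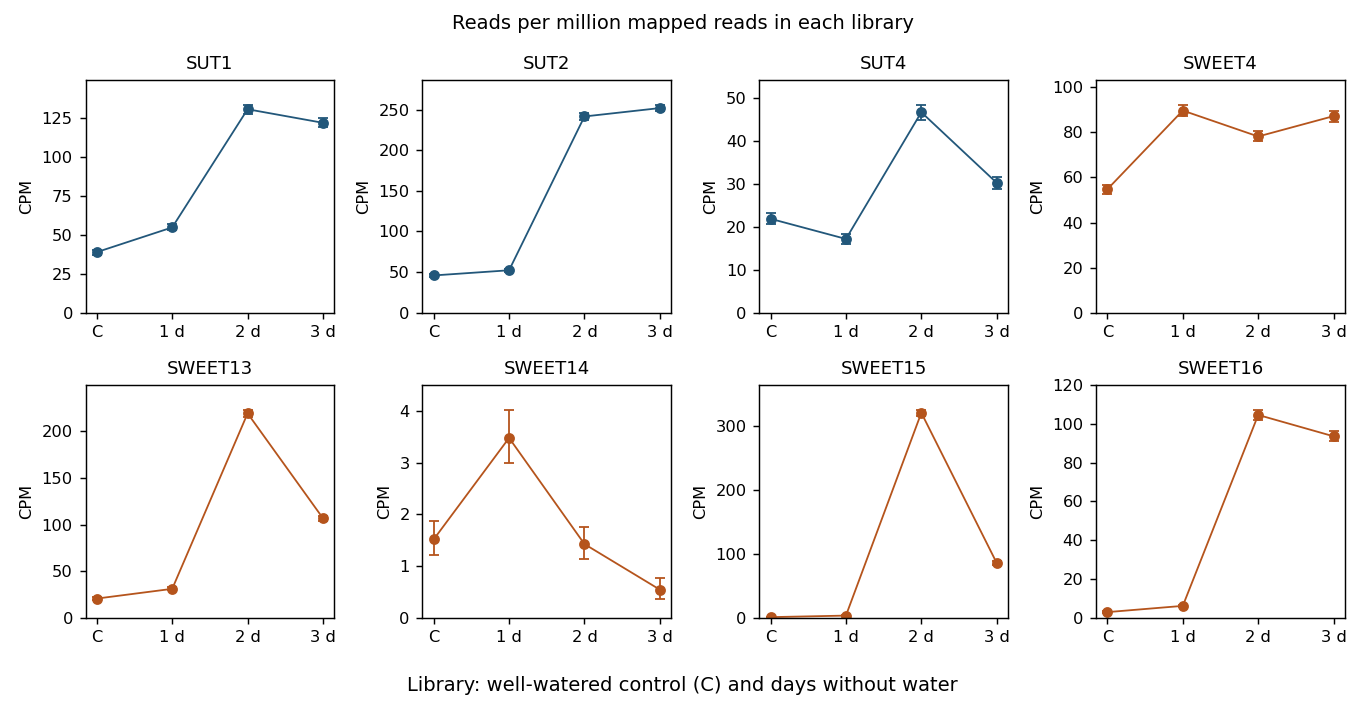
Counts of reads scaled to 1000000 mapped reads (CPM) of the 8 transcripts in the well-watered control (C) and after 1, 2 and 3 days without water, 1 library each, with exact Poisson 95% intervals that cover counting error only. SUT1, SUT2, SUT4, SWEET13, SWEET15 and SWEET16 are higher at 2 d than at 1 d, SWEET15 reaches 320 CPM at 2 d, SWEET14 is highest at 1 d with 3.48 CPM, and the vertical scale differs between panels.

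Taken as a group, and with both SUT1 transcripts counted, the 8 loci held 204 CPM in C, 279 at 1 d, 1198 at 2 d and 827 at 3 d. The sum for the 3 SUT loci was 123, 145, 474 and 454 CPM, and that for the 5 SWEET loci 81.1, 134, 723 and 374 CPM. The SUT sums at 3 d and 2 d were close, while the SWEET sum at 3 d was well below that at 2 d. Most of that fall lay in SWEET15 (320 CPM at 2 d and 85.6 at 3 d) and SWEET13 (219 and 107). SWEET16 stood at 105 and 93.6 CPM, SWEET4 at 78.2 and 87.2, and SWEET14 at 1.43 and 0.545.

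SWEET15, a sucrose exporter of the same clade as SWEET13 and SWEET14 that is known in rice for its part in filling the grain, changed most. Its reads were 64 in C, 186 at 1 d, 19303 at 2 d and 4870 at 3 d, or 1.13, 3.53, 320 and 85.6 CPM. The control and 1 d libraries were low and the 2 d library high, with the 3 d library between them. At 1 d its log2 ratio was 1.65 (1.23 to 2.08). At 2 d it was 8.15 (7.79 to 8.53), a 284-fold higher level (222 to 368), which was place 19 from the top among 31344 loci. At 3 d it was 6.25 (5.89 to 6.62), 75.8-fold higher, at place 299 of 30920. Most of the increase came between the 1st and the 2nd day: the 2 d library was 90.5-fold higher than the 1 d library (78.4 to 105). The 3 d library had a log2 ratio of −1.90 (−1.95 to −1.86) to the 2 d library, −1.45 relative to all loci, and was thus 3.74-fold lower. Per kb of gene sequence SWEET15 was the least abundant of the 8 transcripts in the control (0.413 CPM per kb, with an interval overlapping that of SWEET14) and the most abundant at 2 d (117 CPM per kb). Of all loci, 64.1% stood at or above it by CPM per kb in C, 1.04% at 2 d and 5.42% at 3 d.

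SWEET13 is a sucrose exporter of the leaf and a target of bacterial blight strains. It had 1173, 1637, 13220 and 6071 reads in the 4 libraries in order of time, or 20.7, 31.1, 219 and 107 CPM. Its order over the days was that of SWEET15, with the 2 d library highest, but its range was narrower. The log2 ratio to the control was 0.59 (0.48 to 0.70) at 1 d, 3.41 (3.32 to 3.49) at 2 d and 2.37 (2.28 to 2.46) at 3 d, which is 10.6-fold higher at 2 d and 5.16-fold higher at 3 d. Relative to all loci these last values were 3.81 and 3.23. At 3 d it was 2.05-fold lower than at 2 d, a log2 ratio of −1.04 (−1.08 to −0.99). That step was close to the threshold and was not called with edgeR TMM (−0.65) or the DESeq2 median of ratios (−0.54). Relative to all loci it was −0.59.

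SWEET14, which is also a sucrose exporter and a blight target, took a different course. Its reads were 86 in C, 183 at 1 d, 86 at 2 d and 31 at 3 d, or 1.52, 3.48, 1.43 and 0.545 CPM. The 1 d library was the highest, the control and the 2 d library did not differ beyond counting error, and the 3 d library was the lowest. The log2 ratio to the control was 1.20 (0.82 to 1.58) at 1 d, −0.09 (−0.54 to 0.36) at 2 d and −1.48 (−2.12 to −0.87) at 3 d. The value at 3 d was −0.62 relative to all loci. It was −0.76 with edgeR TMM and −0.62 with the DESeq2 method, and then not called. From 1 d to 2 d its log2 ratio was −1.29 (−1.67 to −0.91), and from 2 d to 3 d −1.39 (−2.03 to −0.78). Both steps were called down, and neither was with edgeR TMM (−0.96 and −0.99) or the DESeq2 median of ratios (−0.92 and −0.89).

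The 3 sucrose exporters changed places, and the shares below need no scaling between libraries. Of the reads of SWEET13, SWEET14 and SWEET15 together, SWEET13 held 88.7% in the control (86.8 to 90.3, exact binomial interval), 81.6% at 1 d, 40.5% at 2 d and 55.3% at 3 d. SWEET15 held 4.84% in the control (3.75 to 6.14), 9.27% at 1 d, 59.2% at 2 d (58.7 to 59.7) and 44.4% at 3 d. SWEET14 held 6.50% and 9.12% in the control and at 1 d, but 0.264% and 0.283% at 2 d and 3 d. Per kb of sequence the order was the same, with SWEET13 first in the control, at 1 d and at 3 d and SWEET15 first at 2 d. The 3 together took 23.3, 38.1, 541 and 193 CPM in the 4 libraries.

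**Figure D2:**
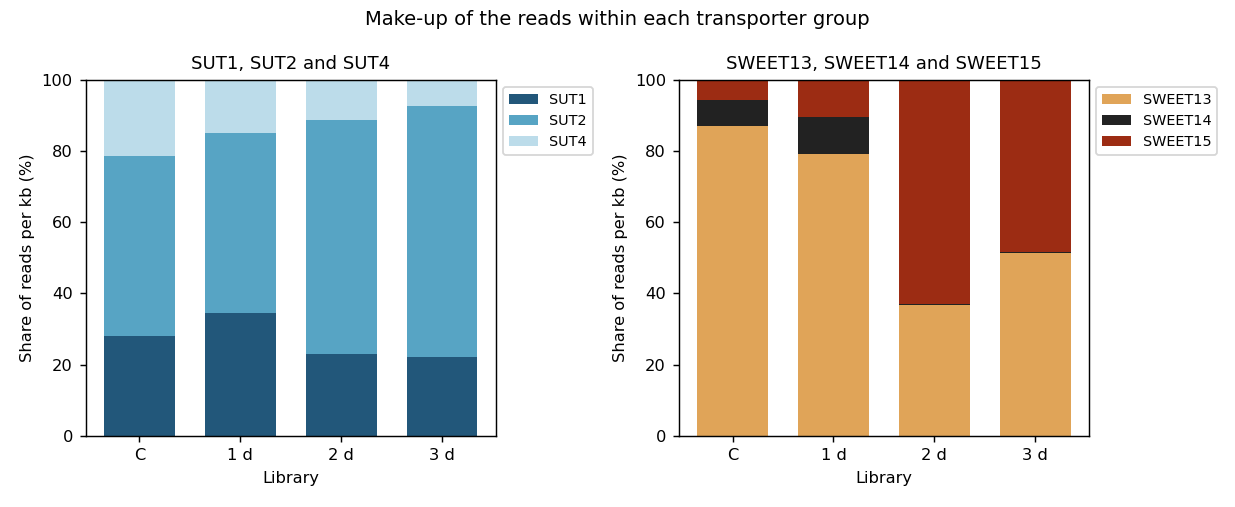
Stacked bars show how the reads per kb of sequence are divided within SUT1 (longer transcript), SUT2 and SUT4 (left) and within SWEET13, SWEET14 and SWEET15 (right), in percent, in the control (C) and at 1, 2 and 3 d without water, 1 library each. SUT2 takes 70.3% at 3 d, against 50.6% in the control, and SWEET15 takes 63.0% at 2 d and 48.3% at 3 d, against 5.57% in the control.

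SWEET16 belongs to the clade whose members in Arabidopsis sit in the vacuole membrane. Its reads were 168 in C, 325 at 1 d, 6309 at 2 d and 5325 at 3 d, or 2.96, 6.18, 105 and 93.6 CPM. The control and 1 d libraries were low, and the 2 d and 3 d libraries were high and close to each other. The log2 ratio to the control was 1.06 (0.79 to 1.34) at 1 d, 5.14 (4.92 to 5.37) at 2 d and 4.98 (4.76 to 5.21) at 3 d, levels 35.3-fold and 31.6-fold higher on the last 2 days. The call at 1 d was lost when raw reads were compared (0.95). Places among all loci were 412 of 31344 at 2 d and 640 of 30920 at 3 d. Between 2 d and 3 d the log2 ratio was −0.16 (−0.21 to −0.11), 0.29 relative to all loci.

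SWEET4, a hexose transporter that in rice and maize supplies sugar to the developing grain, had the narrowest range of the 5 SWEET genes. Its reads were 3107, 4719, 4715 and 4963, or 54.8, 89.7, 78.2 and 87.2 CPM. The 3 drought libraries lay close together and all above the control. The log2 ratio was 0.71 (0.65 to 0.78) at 1 d, 0.51 (0.45 to 0.58) at 2 d and 0.67 (0.61 to 0.74) at 3 d, not called on any day, although with edgeR TMM (1.39) and the DESeq2 median of ratios (1.53) it was called at 3 d. Relative to all loci the 3 values were 0.68, 0.92 and 1.53. SWEET4 was the most abundant of the 8 transcripts per kb of sequence in the control (13.4 CPM per kb) and at 1 d (22.0 CPM per kb) and was in place 6 at 2 d and place 5 at 3 d.

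**Figure D3:**
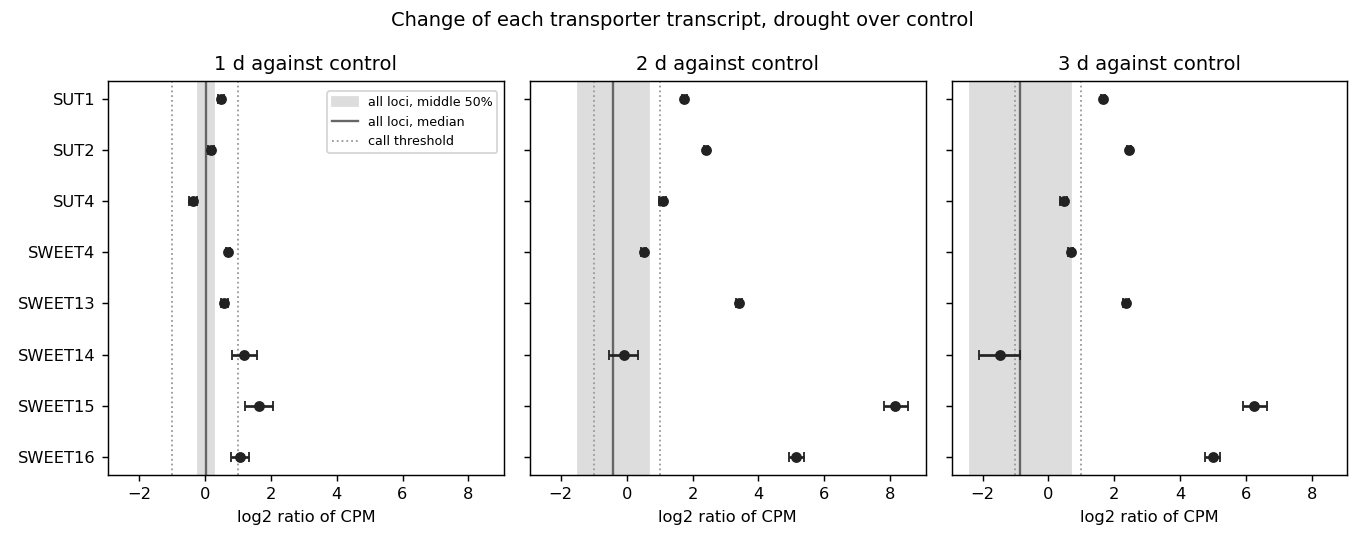
Points are log2 ratios of CPM to the control at 1, 2 and 3 d for the 8 transcripts, with exact 95% intervals that cover counting error only; the grey band holds the middle 50% of all loci with at least 10 reads, the solid line is their median, and dotted lines mark ratios of −1 and 1. SWEET15 and SWEET16 lie at 8.15 and 5.14 at 2 d and at 6.25 and 4.98 at 3 d, while SWEET14 lies inside the band on both days.

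Among the symporters, SUT2 showed the largest change. SUT2 of rice lies in the vacuole membrane and releases stored sucrose into the cytosol. Its reads were 2600 in C, 2747 at 1 d, 14566 at 2 d and 14330 at 3 d, or 45.8, 52.2, 241 and 252 CPM. The control and 1 d libraries were low and close to each other, as the 2 d and 3 d libraries were at a high level. The log2 ratio was 0.19 (0.11 to 0.27) at 1 d, 2.40 (2.34 to 2.46) at 2 d and 2.46 (2.40 to 2.52) at 3 d, a 5.27-fold and a 5.49-fold higher level on the last 2 days. Relative to all loci these were 2.80 and 3.32. Between 2 d and 3 d it was 0.06 (0.03 to 0.09). Per kb of sequence SUT2 was the most abundant of the 8 transcripts at 3 d, at 61.1 CPM per kb, followed by SWEET16 at 57.5.

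SUT1 is the plasma membrane symporter that takes sucrose up along the transport path and into the grain. Its longer transcript, Os03t0170900-01, had 2205, 2881, 7877 and 6935 reads, or 38.9, 54.7, 131 and 122 CPM. The step lay between 1 d and 2 d, as for SUT2. The log2 ratio was 0.49 (0.41 to 0.57) at 1 d, 1.75 (1.68 to 1.82) at 2 d and 1.65 (1.58 to 1.72) at 3 d, or 3.36-fold and 3.14-fold higher on the last 2 days, and 2.15 and 2.51 relative to all loci. The shorter transcript, Os03t0170900-02, had 918, 1121, 3344 and 2842 reads, with log2 ratios of 0.40, 1.78 and 1.63. The shorter one held 28.0 to 29.8% of the reads of both in the 4 libraries. The 2 sequences belong to 1 locus and may share reads, so they are not independent measurements.

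SUT4, a further sucrose symporter, had lower ratios to the control at 2 d and 3 d than SUT1 and SUT2. It had 1241, 904, 2817 and 1721 reads, or 21.9, 17.2, 46.7 and 30.2 CPM. It was lowest at 1 d, highest at 2 d and between these at 3 d. The log2 ratio was −0.35 (−0.47 to −0.22) at 1 d, 1.09 (1.00 to 1.19) at 2 d and 0.47 (0.36 to 0.57) at 3 d. At 1 d it was the only one of the 8 below the median of all loci. At 3 d it was not called, but with edgeR TMM (1.19) and the DESeq2 median of ratios (1.33) it was. Of the reads of the 3 symporter loci, both SUT1 transcripts counted, SUT4 held 17.8% in the control (16.9 to 18.7), 11.8% at 1 d, 9.85% at 2 d and 6.66% at 3 d (6.36 to 6.97). SUT2 held 37.3%, 35.9%, 50.9% and 55.5% in the same order, and SUT1 held 44.8%, 52.3%, 39.2% and 37.9%. By reads, which are not corrected for sequence length, SUT1 was thus first in the control and at 1 d, and SUT2 at 2 d and 3 d. With the longer SUT1 transcript alone SUT1 held 36.5% in the control, below the 43.0% of SUT2, so that the first place in the control depends on which transcripts are counted. Per kb of sequence SUT2 stood above the longer SUT1 transcript in every library. The values were 11.1 against 6.14 CPM per kb in the control and 12.7 against 8.65 at 1 d.

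The steps from day to day place the change of most of these genes on the 2nd day. Between 1 d and 2 d, 6 of the 8 loci were up-regulated (SUT1, SUT2, SUT4, SWEET13, SWEET15 and SWEET16) and 1 (SWEET14) was down-regulated, where 19.8% and 35.4% of all transcripts were. With edgeR TMM or DESeq2 scaling 6 were called up and 0 down. Between 2 d and 3 d, 0 were up-regulated and 3 were down-regulated (SWEET13, SWEET14 and SWEET15), where 10.9% and 30.5% of all transcripts were. With edgeR TMM or the DESeq2 median of ratios 1 was down-regulated, which was SWEET15. The largest of the 8 changes between 2 d and 3 d was that of SWEET15, and SUT1, SUT2 and SWEET16 lay between −0.16 and 0.06 on the log2 scale in that step.

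The order of levels per kb of sequence was set anew by 2 d. In the control it ran SWEET4, SUT2, SWEET13, SUT1, SUT4, SWEET16, SWEET14 and SWEET15, over a range of 32.4-fold, and the counting intervals of SWEET13 and SUT1 and of SWEET14 and SWEET15 overlapped. At 1 d the range was 17.5-fold, and the intervals of SWEET16 and SUT4 and of SWEET15 and SWEET14 overlapped. At 2 d the order was SWEET15, SWEET13, SWEET16, SUT2, SUT1, SWEET4, SUT4 and SWEET14, over a range of 228-fold. At 3 d it was SUT2, SWEET16, SWEET13, SWEET15, SWEET4, SUT1, SUT4 and SWEET14, over 311-fold. These orders rest on the longer SUT1 transcript. The shorter one stood at 9.31 CPM per kb in C, above SWEET13, at 12.3 at 1 d, above SWEET13 also, at 31.9 at 2 d, still behind SUT2, and at 28.7 at 3 d, above SWEET4. At 2 d and 3 d no neighbours in the order had overlapping intervals, which cover counting error only. Because the sequence lengths include introns, a gene with long introns is understated on this scale.

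Loci that followed a like course were found as the distance between the 3 log2 ratios (1, 2 and 3 d) of 2 loci, over 14164 loci with a described protein and a mean of at least 100 reads. The loci nearest to SUT2 were a P-type ATPase gene (Os08t0379200-01, distance 0.05), a protein kinase gene (Os01t0936100-01, 0.06) and a gene similar to potassium transporter 11 (Os09t0563200-01, 0.08). Nearest to SUT1 were a C2 domain gene (Os04t0691800-01, 0.04), a homeodomain-like gene (Os09t0491660-01, 0.14) and a gene similar to phosphoribosylanthranilate transferase (Os04t0691750-00, 0.15). Nearest to SUT4 were a gene similar to a lysine decarboxylase (Os03t0857900-02, 0.09), an endonuclease/exonuclease/phosphatase domain gene (Os01t0183300-01, 0.10) and a gene similar to spotted leaf protein 11 (Os03t0275900-01, 0.14). Nearest to SWEET4 were genes similar to a viroid RNA-binding protein (Os02t0112900-00, 0.17), to MYC1 (Os05t0103000-01, 0.27) and to a basic leucine zipper protein (Os04t0637000-02, 0.29). SWEET13 was nearest to a gene similar to acid phosphatase type 5 (Os03t0238700-01, 0.25) and a gene similar to HVA22, an abscisic acid-induced protein first described in barley (Os11t0498600-01, 0.31). Its next nearest was a gene described only by a cDNA clone (Os12t0595800-01, 0.32). SWEET16 had as its 3 nearest loci a glutamate dehydrogenase domain gene (Os06t0483150-00, 0.32), the bZIP factor OSBZ8 (Os01t0658900-01, 0.39) and a 2OG-Fe(II) oxygenase domain gene (Os07t0169600-01, 0.41). Nearest to SWEET15 were a gene similar to H0315A08.1 protein (Os12t0562166-00, 0.54), an allene oxide synthase gene of jasmonate synthesis (Os02t0218700-01, 0.67) and a NAM domain gene (Os12t0123700-00, 0.74). All 3 ratios of SWEET15 rest on 64 reads in the control, and that counting error enters its distances. They therefore cannot be compared closely with those of loci with more reads. SWEET14 had a mean below 100 reads and was not searched. Among the 8 loci themselves SUT1 and SUT2 were closest (1.08), followed by SUT2 and SWEET13 (1.09).

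The other SWEET genes moved in both directions. The words MtN3 and SWEET in the description found 13 further loci, of which 10 had at least 10 reads, 1 of these being a SWEETIE gene, which does not code for a SWEET transporter. At 1 d 2 of the 10 were called up and 0 down, where 5.71% and 4.57% of all loci with at least 10 reads were. Both calls rest on few reads. Os08t0535200-01 had 6 reads in C and 16 at 1 d. Os09t0508250-00 had 1 and 3, and its interval (−1.95 to 7.41) included no change. At 2 d it was 5 up and 2 down, against 19.9% and 34.9% of all loci, and at 3 d again 5 and 2, against 20.8% and 47.4%. Both of the loci with few control reads are among the 5 on each of these days. The interval of Os09t0508250-00 at 2 d (−0.55 to 8.02) also included no change. Set against the day before, 4 of the 10 were up and 2 down at 2 d (20.3% and 35.9% of all loci) and 3 up and 3 down at 3 d (11.2% and 30.9%). Their median log2 ratio was 1.41 at 2 d and 1.52 at 3 d. With at least 100 reads required it was 0.79 and 0.43. The MtN3 and saliva related gene Os01t0881300-02 had 3925, 4340, 274 and 138 reads, a log2 ratio of −4.83 (−5.09 to −4.59) at 3 d. The neighbouring identifiers Os01t0605700-01 and Os01t0606000-00 also carry this description. The first had 582, 545, 2538 and 5737 reads, a log2 ratio of 3.30 (3.17 to 3.42) at 3 d. The second had 18, 17, 106 and 392 reads, a log2 ratio of 4.44 (3.76 to 5.21). Both were highest at 3 d, unlike SWEET13 and SWEET15, as were Os01t0700100-01 and Os09t0508250-00. Os08t0535200-01 (6, 16, 154 and 38 reads), Os01t0541800-01 and Os05t0426000-01 were highest at 2 d, as SWEET13 and SWEET15 were. The rest of the 10 were highest at 1 d. The 4 further loci described as sucrose transporters had at most 5 reads in any library, too few for a comparison.

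Hexose transport is the other branch of sugar transport. Of 46 loci described as hexose, monosaccharide or sugar transporters, 10 were up- and 20 down-regulated at 2 d, where 19.9% and 34.9% of all loci were, and 10 and 24 at 3 d, where 20.8% and 47.4% of all loci were. Their median was −0.33 relative to all loci at 3 d. This list also holds nucleotide sugar transporters and a locus described as SWEET3a, which is in the SWEET list as well. The largest changes at 3 d among those with a mean of at least 100 reads were a sugar transporter gene (Os10t0360100-01) with 8, 8, 115 and 1272 reads, a log2 ratio of 7.31 (6.33 to 8.52), a monosaccharide transporter 1 gene (Os04t0453400-02) at −4.40 (−4.81 to −4.02), and a hexose transporter gene (Os03t0218400-01) with 4125, 2924, 34739 and 79749 reads at 4.27 (4.22 to 4.31). The 2 loci described as tonoplast monosaccharide transporters, chosen after their values were seen, had log2 ratios of −3.39 (Os02t0229400-01) and −2.90 (Os10t0539900-01) at 3 d. They lie in the same membrane as SUT2, whose ratio at 3 d was 2.46.

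Sucrose enzymes changed gene by gene. Of 15 invertase loci, which split sucrose into glucose and fructose, 3 were up- and 3 down-regulated at 3 d, where 20.8% and 47.4% of all loci were, and their median was 0.41, or 1.27 above that of all loci. A neutral invertase gene (Os03t0314800-01) had 820, 815, 12132 and 14944 reads, a log2 ratio of 4.18 (4.08 to 4.29). The beta-fructofuranosidase 1 gene (Os04t0535600-01) stood at 3.01 (2.88 to 3.14), and a neutral invertase gene (Os04t0409900-01) at 2.88 (2.74 to 3.02). Beside the same shares of all loci, 2 of 6 sucrose synthase loci were up- and 1 down-regulated, and Os03t0340500-01 had 3676, 2851, 19774 and 26761 reads, a log2 ratio of 2.86 (2.81 to 2.91), while Os02t0831500-01, with 213, 214, 106 and 89 reads, stood at −1.26 (−1.64 to −0.90). Of 8 sucrose-phosphate synthase loci, whose product is the precursor of sucrose, 2 were up- and 1 down-regulated, again beside 20.8% and 47.4% of all loci. Os01t0919400-00 stood at 3.03 and Os01t0702900-01 at −5.18 (−6.33 to −4.24), and the locus with most reads (Os08t0301500-01) had 18467, 15677, 44323 and 52339 reads, a log2 ratio of 1.50. The median of the sucrose-phosphate synthases lay 0.73 above that of all loci at 3 d. That of the sucrose synthases lay 0.86 above it, which was 0.00 when at least 100 reads were required of the list and of all loci, since a locus with 1 control read (Os07t0616800-01) then dropped out.

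**Figure D4:**
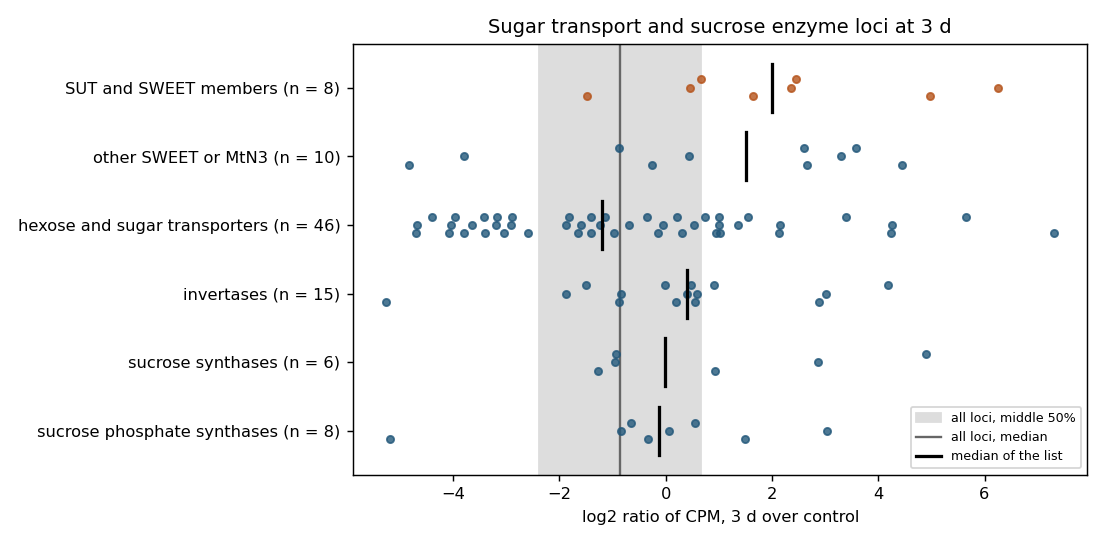
Points are the log2 ratios of CPM at 3 d over the control for the 8 SUT and SWEET loci and for 5 lists of related loci with at least 10 reads over the 4 libraries, black bars are the list medians, and the grey band and line are the middle 50% and the median of all loci. The 8 loci have a median of 2.01 and the 46 hexose and sugar transporters one of −1.19, and loci of every list lie on both sides of 0.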

How the data were processed

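RNA-seq libraries of rice leaves (control and 1, 2 and 3 d without water, 1 each) were sequenced by the authors, who removed adaptors, poor bases and (with FastUniq) duplicate reads before mapping with clc_ref_assemble to RAP-DB gene sequences (IRGSP-1.0). Whether strand was used in counting is not given in the sources used here. Read counts were deposited as whole numbers, which add up to the mapped reads, 52626188 to 60322263 a library, and were used throughout. The authors also deposited a score headed RPKM, which on the values is reads over length and over the number of sequences (44553) times a constant, for all 159438 values above 0 within a relative tolerance of 1e-06. It is not scaled to depth and was not used. The deposited log2 ratio columns are the authors' own comparisons and were not used, nor was the noncoding RNA table.

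Counts were divided by mapped reads and compared where both libraries had reads, with the transcript with the most reads standing for its locus. Intervals are exact (Clopper-Pearson for ratios and shares, Poisson for levels) at 95%. With 1 library per condition no test across samples was possible. A count of 0 allows up to 3 reads, 0.0497 to 0.0570 CPM. Member ratios and counts of called members were recomputed without scaling, with edgeR TMM factors, the DESeq2 median of ratios, 1 read added, at least 10 reads in both libraries together, an interval excluding no change, a threshold of 2 and −2 on the log2 scale, and reads summed over a locus. List medians were recomputed with no filter and with at least 100 reads. SUT shares were also computed with both SUT1 transcripts, chosen after seeing the data. Lists of related genes were made from words in the descriptions, and from each the 3 loci that changed most at 3 d, in either direction, among those with a mean of at least 100 reads were to be named, as were all 8 loci and the 3 loci nearest to each in pattern. Not all of these are printed. Genes and lists were chosen with earlier results of these data known. The calculation was tested on simulated counts. Scaling factors came from edgeR 4.0.16 and from DESeq2 1.42.0 (R 4.3.3). All other values were computed in Python 3.11.15 (scipy 1.17.1, pandas 2.3.3, numpy 2.4.6) and plotted in matplotlib 3.10.9. RefSeq names are those of assembly ASM3414082v1, whose coordinates were used only to look for genes overlapping the 8.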

Additional observations from a re-analysis of the deposited data

Results flagged for a closer look

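SWEET14 was called in opposite directions on different days under the same comparison with the control, with a log2 ratio of 1.20 at 1 d and of −1.48 at 3 d. The difference was not tested, since each day has 1 library, and both days share the control library. The call at 3 d rests on 31 reads at 3 d and 86 in the control.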

How the results depend on the processing

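No member changed the side of its call to the opposite direction under any of the 8 alternatives. Counts that moved by more than 1.5 times were these. At 1 d, 3 loci were called higher and 0 lower, which became 7 and 1 when a counting interval that excludes no change was enough, and 0 were higher at a log2 ratio of at least 2. The 1 locus called lower at 3 d became 0 with edgeR TMM, with the DESeq2 median of ratios and at the stricter threshold. The 1 locus called lower at 2 d against 1 d became 0 under the same 3 settings and 2 with the interval rule. At 3 d against 2 d, 0 higher and 3 lower became 2 and 6 with the interval rule, and the 3 lower became 1 with edgeR TMM, 1 with the DESeq2 median of ratios and 0 at the stricter threshold. With no scaling, 1 read added, at least 10 reads and reads summed over a locus every count was within 1.5 times. Requiring at least 100 reads moved 4 list medians. That of the sucrose synthases became −0.94 at 3 d, against −0.00 with at least 10, and −0.17 at 2 d against 1 d, where it had been −0.69. That of the other SWEET genes became 0.79 at 2 d and 0.43 at 3 d, where it had been 1.41 and 1.52. Counting both SUT1 transcripts, chosen after seeing the data, moved all 12 SUT shares beyond their counting intervals. No paired analysis was possible because each condition has 1 library. SWEET14, with 31 to 183 reads, and SWEET15 and SWEET16 in the control, with 64 and 168, had the widest intervals.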
